A study of Mus musculus with 24 samples.

Results

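The Major urinary protein (Mup) genes were followed in isolated hepatocytes of 24 male mice. The members were taken by gene symbol as Mup1, Mup3, Mup7, Mup10, Mup11, Mup12, Mup16, Mup17, Mup20 and Mup21, which are 10 of the 55421 genes in the deposited count table. The young groups were C57BL/6N mice labelled 6 months old and the old groups were C57BL/6J mice labelled 24 months old, so an effect of age cannot be told apart from one of substrain. In each age group, 6 mice received a normal diet (ND), for which the labels and the study's methods name different products. The other 6 received a high-fat diet (HFD) with 60% of its energy from fat, and all diets lasted 9 weeks. For the 4 groups (young ND, young HFD, old ND, old HFD) the labels name no transgene and no drug. Perfusion of the liver with collagenase, followed by Percoll, gave the hepatocytes, and polyA RNA of each mouse was sequenced in 1 of 2 batches. Batch 1 held 3 mice of each group but only 2 of old ND, and batch 2 held the rest. Groups were compared to ask how age changes the response of hepatocytes to HFD, and the values below are CPM, the read counts per gene scaled to each library's size by edgeR's TMM method.

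Mups are small secreted proteins of the lipocalin family, a fold that carries greasy molecules in a central pocket. Hepatocytes make most of them, the kidney passes them into the urine, and there they bind and slowly release volatile scent molecules that other mice read as marks of sex, identity and territory. Mup20, also called darcin, is itself a scent that attracts females. In mouse liver the genes are transcribed more in males than in females, under the pulses of growth hormone that act through the factor STAT5b, and androgens and thyroid hormone also raise them. The family expanded by repeated duplication, which left a central set of nearly identical copies and a few copies that differ more.

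All 10 members are protein-coding genes on the minus strand of chromosome 4 in the GENCODE annotation of GRCm38, the mm10 build of the count table. The stretch that holds the family, chr4:59956804-62150863, is 2.19 Mb long and contains 22 protein-coding Mup genes, most of the 27 Mup pseudogenes and 0 protein-coding genes of other families. Mup7 (ENSMUSG00000073842) lies at chr4:60066469-60070475, Mup1 (ENSMUSG00000078683) at chr4:60498012-60501960, Mup10 (ENSMUSG00000078680) at chr4:60578260-60582199 and Mup11 (ENSMUSG00000073834) at chr4:60658466-60662411. Mup12 (ENSMUSG00000094793) follows at chr4:60737383-60741326, Mup16 (ENSMUSG00000078675) at chr4:61515592-61519531 and Mup17 (ENSMUSG00000096688) at chr4:61591929-61595871. At the far end stand Mup20 (ENSMUSG00000078672) at chr4:62050234-62054158, Mup3 (ENSMUSG00000066154) at chr4:62083476-62087342 and Mup21 (ENSMUSG00000066153) at chr4:62147932-62150863.

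How alike the copies are decides what a read count can mean, so 90 bases of coding exon are shown for each distinct form. The window starts at base 97 of the Mup12 coding sequence (chr4:60740692-60740781), is printed 5′ to 3′ along the gene from the GENCODE transcripts, and has capitals wherever a copy differs from Mup12. Mup1, Mup10 and Mup11 are identical to Mup12 in this window and are not printed again.
Mup12: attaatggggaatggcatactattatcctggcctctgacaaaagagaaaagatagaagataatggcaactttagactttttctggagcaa
Mup7: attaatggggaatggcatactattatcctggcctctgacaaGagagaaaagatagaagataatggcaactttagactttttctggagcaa
Mup16: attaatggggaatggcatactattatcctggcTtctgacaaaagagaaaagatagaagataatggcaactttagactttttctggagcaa
Mup17: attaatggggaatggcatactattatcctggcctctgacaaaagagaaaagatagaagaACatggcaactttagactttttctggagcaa
Mup20: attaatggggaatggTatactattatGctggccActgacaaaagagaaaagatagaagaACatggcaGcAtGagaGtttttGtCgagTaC
Mup3: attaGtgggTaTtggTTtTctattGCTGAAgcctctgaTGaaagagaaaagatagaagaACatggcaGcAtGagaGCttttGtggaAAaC
Mup21: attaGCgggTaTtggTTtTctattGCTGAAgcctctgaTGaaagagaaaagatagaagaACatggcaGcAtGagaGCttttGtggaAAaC

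The window differs from Mup12 at 1 base in Mup7, 1 in Mup16 and 2 in Mup17, against 13 in Mup20, 25 in Mup3 and 26 in Mup21. Over the whole coding sequence the first 7 copies (Mup1, Mup7, Mup10, Mup11, Mup12, Mup16 and Mup17, called the near-identical copies below) share 98.34% to 99.63% of bases with each other. Mup3 and Mup21 share 94.75% with each other, and Mup20 shares 87% with Mup3 and 90.61% with Mup12. Of all 50-base stretches in a gene's annotated transcripts, the share found in no other gene was 84.39% for Mup3, 80.73% for Mup21 and 49.49% for Mup20, most of whose other stretches match the pseudogene Mup-ps19. That share was only 3.64% for Mup7, 5.24% for Mup1, 9.34% for Mup16, 11.01% for Mup11, 13.78% for Mup10, 14.6% for Mup12 and 21.87% for Mup17. Whether the authors' counting dropped or assigned reads that match several copies is not given in the sources used here. The counts of the near-identical copies are therefore uncertain in level and may trade reads with each other and with copies outside the 10, while those of Mup3, Mup21 and, less so, Mup20 rest largely on sequence of their own.

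Total counts per mouse were 9200332 to 22185069 (median 15552114), and every old HFD library was smaller than any other. Of all genes, 13583 had enough counts to be tested, among them 9 of the 10 members. Mup10 did not pass, with 0 to 23 counts per mouse, and is given only as counts. All 10 hepatocyte marker genes were detected in every group. Their summed level was 103600 to 159300 CPM in young ND and 50790 to 168000 CPM in old ND, where replicate 4 was the lowest mouse and the next had 123400 CPM. Summed Kupffer cell markers (10 genes, macrophages of the liver) were 1.75 to 87.0 CPM in young ND, 15.4 to 225 CPM in young HFD, 54.4 to 1425 CPM in old ND and 71.8 to 724 CPM in old HFD. Old ND replicate 4 was also the highest mouse of its group for markers of Kupffer, endothelial and stellate cells and leukocytes, so results that rest on it are given with and without it. None of the marker genes of these cell types was at 0 in all mice.

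In young ND hepatocytes the Mups were among the most abundant messages. The 10 members together had 15185 ± 2725 CPM (SD, n = 6), which was 1.5% of all counts and would rank 4 among single genes, after albumin, mt-Co1 and Apoe. Young HFD had 10440 ± 2788 CPM, old HFD 10479 ± 3548 CPM and old ND 8912 ± 1979 CPM, and the same sum would rank 6, 9 and 12 there. By mouse the sum was lowest at 10466, median 15500 and highest at 17944 CPM in young ND, against 5076, 9655 and 10315 CPM in old ND. It was 8073, 9477 and 15712 CPM in young HFD and 7524, 8973 and 16372 CPM in old HFD. Every old ND mouse lay below every young ND mouse, while the HFD groups overlapped both.

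**Figure D1:**
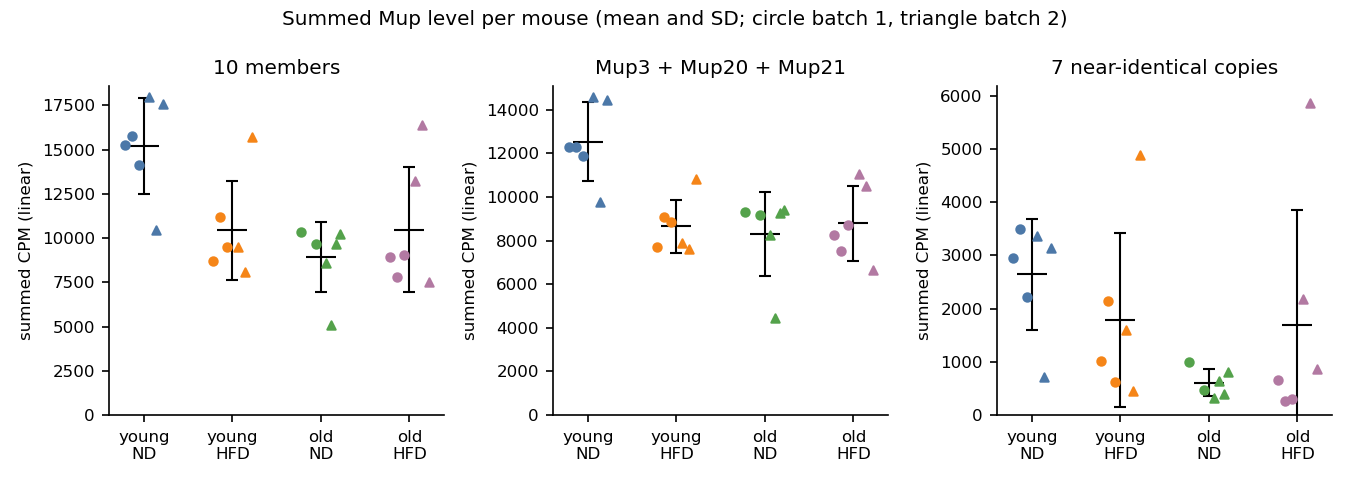
Summed CPM (linear axis) per mouse for the 10 members, for Mup3, Mup20 and Mup21, and for the 7 near-identical copies, by group; points are mice (circle batch 1, triangle batch 2) and the line and bar are mean and SD of 6 mice, cut off at 0. The old ND sum of 10 members tops out at 10315 CPM, below the lowest young ND mouse at 10466 CPM, and the near-identical copies reach 4891 CPM in 1 young HFD mouse and 5870 CPM in 1 old HFD mouse.

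Old ND had 58.7% of the young ND sum, a log2 ratio of −0.77 that was −0.59 in batch 1, −0.87 in batch 2 and −0.65 without old ND replicate 4. The ratio of young HFD to young ND was −0.54 (68.7%), with −0.62 and −0.47 in the batches. Between the old groups it was 0.23 for HFD over ND, but −0.22 in batch 1 and 0.56 in batch 2, and it was 0.06 without old HFD replicate 5, 0.16 without old HFD replicate 4 and 0.11 without old ND replicate 4. No test was made of a sum. In bulk RNA of this kind, fewer hepatocytes in a sample and less of a message per hepatocyte cannot be told apart.

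A few copies supplied most of that sum, and Mup3 was the largest in each group. Mup3 made up 58.8% ± 5.18 (SD, n = 6) of it in young ND and 65.1% ± 8.63 in young HFD, against 58.1% ± 5.56 in old ND and 55.7% ± 11.3 in old HFD. Mup20 made up 22.8% ± 3.2 in young ND and 18.1% ± 5.79 in young HFD, with 33.4% ± 7.31 in old ND against 29.9% ± 5.70 in old HFD. The 7 near-identical copies together held 16.8% ± 5.31, 15.2% ± 9.49, 7.16% ± 3.47 and 13% ± 12.3 in the same order. In CPM that was 2647 ± 1047 in young ND and 1788 ± 1644 in young HFD, against 607 ± 258 in old ND and 1691 ± 2164 in old HFD, so in both HFD groups the spread between mice was about as large as the mean.

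**Figure D2:**
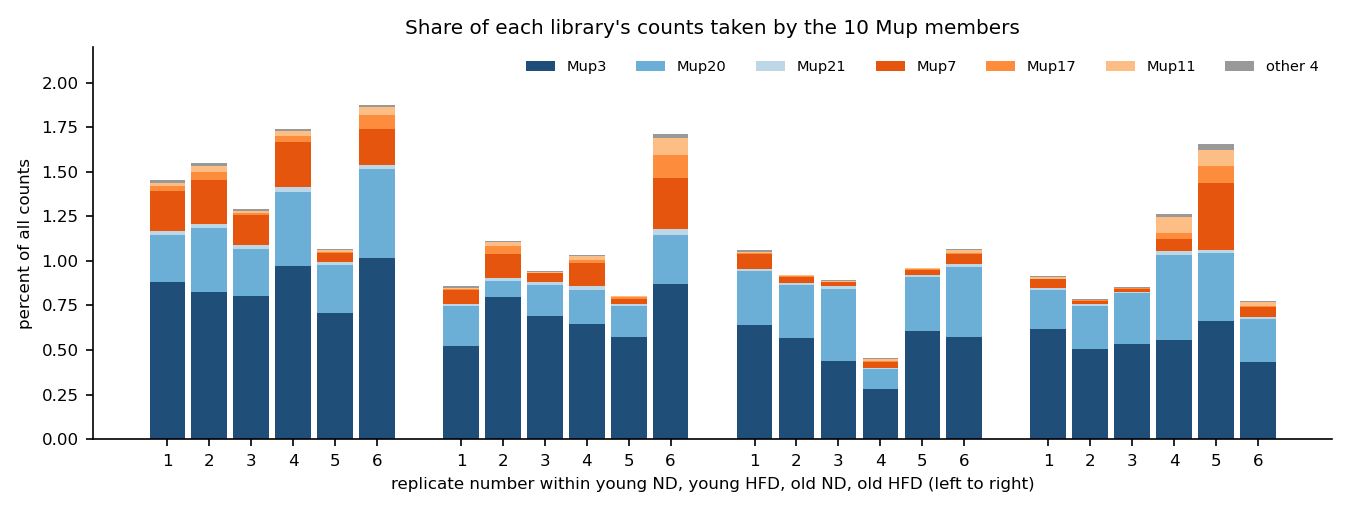
Percent of each library's counts (linear axis, stacked bars, 1 bar per mouse) taken by the 10 members, in the order young ND, young HFD, old ND, old HFD. Blue shades are Mup3, Mup20 and Mup21, orange shades are Mup7, Mup17 and Mup11, and grey is the other 4 copies; the totals run from 0.454% in old ND replicate 4 to 1.87% in young ND replicate 6.

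Per kilobase of transcript, the levels in young ND fell in the order Mup3 (8970 ± 1090 CPM per kb, SD, n = 6), Mup20 (3737 ± 939) and Mup7 (2093 ± 837). Mup17 (360 ± 249), Mup21 (360 ± 68.4) and Mup11 (264 ± 142) followed and could not be placed in order, since their ranges overlapped, and the lowest Mup7 mouse (542) also lay below the highest Mup17 mouse (771). Mup1 (65.1 ± 29.1), Mup12 (40.3 ± 16.5) and Mup16 (32.0 ± 13.1) also overlapped in sequence, and Mup10 was lowest with 0.501 ± 0.370 CPM per kb. Mup3 and Mup20 did not overlap in young ND or young HFD, but did in old ND and old HFD, where Mup20 reached 4217 and 5372 CPM per kb and Mup3 went down to 3179 and 4274 CPM per kb. For the near-identical copies, the level per kb depends on how shared reads were counted, so their places below Mup20 are those of the deposited counts only.

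Old ND against young ND gave the largest set of changes: 6 of the 9 tested members fell and 0 rose. They were Mup3, Mup21, Mup17, Mup7, Mup16 and Mup1 (adjusted p under 0.05 in the quasi-likelihood test of edgeR, with the Benjamini-Hochberg method over all genes). Of all 13583 genes, 8.5% were called in this comparison, 1.24% lower and 7.26% higher. The median log2 fold change was −1.67 over the 9 members and 0.0070 over all genes, and all 9 estimates were below 0.

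Mup3 had 6957 CPM in its lowest young ND mouse, 9022 at the median and 10007 in the highest, against 3128, 5690 and 6215 CPM in old ND. The highest old ND mouse was thus below the lowest young ND mouse. Its log2 fold change was −0.76 (standard error 0.17, edgeR adjusted p = 0.00649), or 1.70-fold lower, with −0.52 in batch 1, −0.91 in batch 2 and −0.65 without old ND replicate 4.

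Mup21 had 168, 258 and 285 CPM (lowest, median, highest) in young ND and 62.8, 134 and 139 CPM in old ND. Its groups also did not overlap, and 5 of the 6 old ND mice lay within 129 to 139 CPM. The log2 fold change was −1.05 (standard error 0.27, edgeR adjusted p = 0.017), with −0.92 in batch 1, −0.99 in batch 2 and −0.90 without old ND replicate 4.

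Mup17 fell furthest. It had 80.0, 305 and 715 CPM in young ND and 16.8, 32.4 and 77.4 CPM in old ND, which separated the groups by a narrow margin. The log2 fold change was −3.62 (standard error 0.90, edgeR adjusted p = 0.0137), with −3.84 in batch 1 and −2.97 in batch 2. The groups of these 3 members did not overlap, which held for 1.72% of all genes in the same direction.

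Mup7, the most abundant near-identical copy, had 502, 2119 and 2587 CPM in young ND and 210, 377 and 808 CPM in old ND. The overlap came from young ND replicate 5, at 502 CPM, as the next young ND mouse had 1802 CPM. Its log2 fold change was −2.22 (standard error 0.62, edgeR adjusted p = 0.0264). Mup16 had 7.05, 32.7 and 43.2 CPM in young ND and 3.36, 8.16 and 12.3 CPM in old ND, a log2 fold change of −2.08 (standard error 0.63, edgeR adjusted p = 0.0402). Mup1 had 16.2, 66.4 and 87.4 CPM in young ND and 6.08, 12.9 and 38.7 CPM in old ND, a log2 fold change of −1.90 (standard error 0.58, edgeR adjusted p = 0.0426).

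The 3 tested members that did not pass were Mup11, Mup12 and Mup20. Mup11 had a log2 fold change of −1.67 (95% interval −2.97 to −0.37, edgeR adjusted p = 0.126) and Mup12 one of −1.19 (−2.13 to −0.25, edgeR adjusted p = 0.131). Mup20, the darcin gene, had 2625, 3245 and 4671 CPM in young ND and 1253, 3085 and 3913 CPM in old ND, with wide overlap. Its log2 fold change was −0.23 (95% interval −0.72 to 0.25, edgeR adjusted p = 0.637), and −0.06 (adjusted p = 0.93) without old ND replicate 4. Mup10 had 2 to 23 counts in young ND and 1 to 10 in old ND.

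Mup3, Mup17 and Mup21 were called in each of the 24 fits that left out 1 mouse. Only these 3 were called without young ND replicate 1, 2 or 4, or without old ND replicate 2, 3 or 4. Over the 24 fits the log2 fold changes of the other 3 stayed between −2.44 and −1.74 for Mup1, −2.72 and −2.07 for Mup7, and −2.34 and −1.88 for Mup16. DESeq2 with batch called the same 6 members, and edgeR without the batch term called only Mup3 and Mup7. Within batch 1, 0 members were called, where 93 of 13543 genes were. Within batch 2, 0 members were called, where 2 of 14243 genes were. By limma on log2(FPKM + 1), 0 members and 39 of 26244 genes passed the adjusted threshold. At an unadjusted p under 0.05, 8 of 10 members differed in that limma fit, and the share of all genes at that threshold was not computed. Markers of other liver cells were also higher in old ND (Kupffer cell 10 of 10 tested markers called higher, leukocyte 9 of 11, stellate cell 9 of 10, endothelial cell 5 of 10). Of general hepatocyte markers 0 of 10 were called, and of 10 markers of hepatocytes around the central vein 1 was called higher and 0 lower. The part of these cells in the Mup difference was not tested.

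**Figure D3:**
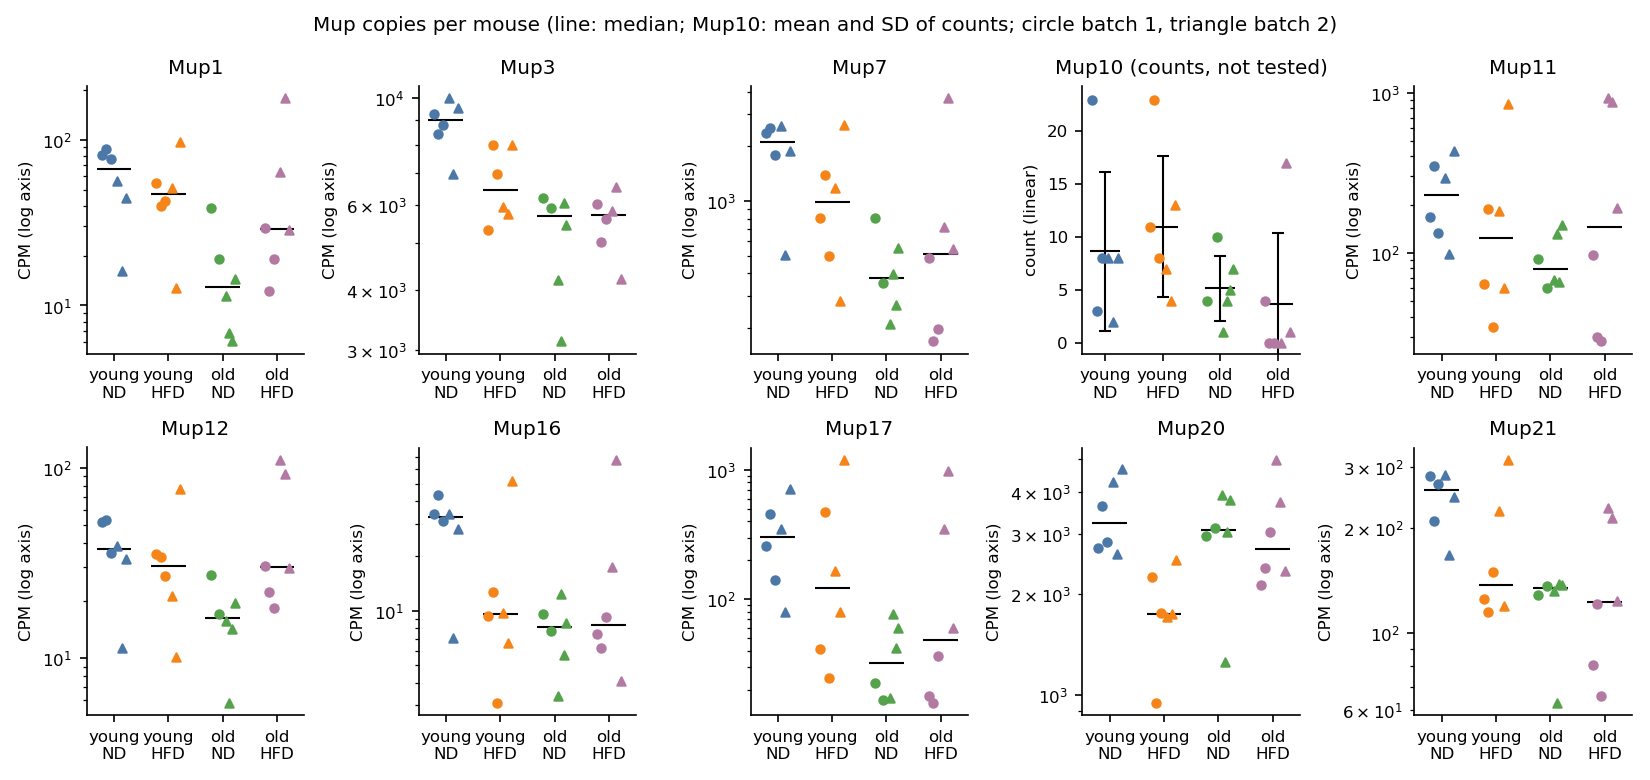
CPM of each member per mouse (log axes, except Mup10, shown as counts on a linear axis) by group; points are mice (circle batch 1, triangle batch 2), lines are medians, and for Mup10 the mean and SD of 6 mice. Old ND lies wholly below young ND for Mup3, Mup17 and Mup21, young HFD lies wholly below young ND for Mup20, and Mup11 and Mup17 spread widely between the mice of both HFD groups.

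In young mice, 1 of the 9 tested members, Mup20, was lower on HFD and 0 were higher, against 3.5% of all genes called, 1.59% lower and 1.91% higher. Mup20 had 2625, 3245 and 4671 CPM (lowest, median, highest) in young ND and 951, 1746 and 2522 CPM in young HFD. The groups did not overlap, as for 3.06% of all genes in this direction. The log2 fold change was −0.93 (standard error 0.25, edgeR adjusted p = 0.0406), or 1.90-fold lower, with −0.90 in batch 1 and −0.93 in batch 2. The call was close to the threshold: Mup20 stayed past it in 11 of 24 fits without 1 mouse (adjusted p 0.0137 to 0.107) and had an edgeR adjusted p of 0.0724 in a fit blocked on replicate number, 0.0741 without the batch term and 0.0613 without TMM. It also missed the threshold by limma on log2(FPKM + 1) (adjusted p = 0.0946) and in batch 1 (adjusted p = 0.149) and batch 2 (adjusted p = 0.595) alone, and passed by DESeq2 with batch (adjusted p = 0.00714). Of the markers of other liver cells, 1 of 10 Kupffer cell, 1 of 10 stellate cell, 1 of 10 endothelial cell and 2 of 3 tested erythroid markers were called higher here, as were 3 of 10 markers of hepatocytes around the central vein, and 0 of 11 leukocyte and 0 of 10 general hepatocyte markers were called. Their median log2 fold changes were 2.22 (Kupffer cell), 1.94 (leukocyte), 1.57 (stellate cell) and 1.43 (endothelial cell), and their part in the Mup20 difference was not tested.

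The other 8 estimates were also below 0, from −0.15 for Mup12 to −1.14 for Mup16, with a median over the 9 members of −0.49 against 0.0139 over all genes. Leaving out 1 mouse moved that median to between −0.80 (without young HFD replicate 2) and −0.29 (without young ND replicate 2). It was −0.77 without young HFD replicate 6, −0.31 without replicate 1 and −0.30 without replicate 5 of that group. Mup3 had 5318, 6442 and 8000 CPM in young HFD, and its log2 fold change of −0.41 (standard error 0.17, edgeR adjusted p = 0.152) did not pass. Mup21 had 115, 138 and 316 CPM in young HFD, where replicates 4 and 6 lay near the young ND mice, and a log2 fold change of −0.54 (95% interval −1.06 to −0.01, edgeR adjusted p = 0.254). The near-identical copies differed between batches: Mup7 had −1.31 in batch 1 and −0.26 in batch 2, and Mup16 had −2.11 and 0.0062. Within batch 1 alone, Mup16 was the 1 member called (edgeR adjusted p = 0.0323), and Mup20 was not. Young HFD replicate 6 was the highest mouse of its group for 8 of the 10 members, with 1200 CPM of Mup17 against 473 in the next mouse.

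In old mice, 0 of the 9 tested members were called on HFD in either direction, where 3.01% of all genes were called, 1.37% higher and 1.64% lower (edgeR). At an unadjusted p under 0.05, 4 members differed (22% of all genes did). DESeq2 with batch called 2 higher (Mup1 and Mup12), where it called 3.36% of all genes, and limma on log2(FPKM + 1) called 0. All 9 estimates lay above 0, from 0.06 for Mup20 to 2.30 for Mup17, with a median of 1.15 against −0.0070 over all genes.

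The smallest estimates were those of the divergent copies. Mup3 (log2 fold change 0.09, 95% interval −0.23 to 0.42), Mup20 (0.06, −0.42 to 0.54) and Mup21 (0.16, −0.36 to 0.69) all had an interval that held 0. Mup17 was at 2.30 (0.64 to 3.96, edgeR adjusted p = 0.118), Mup1 at 1.82 (0.64 to 2.99, adjusted p = 0.0821), Mup12 at 1.59 (0.64 to 2.54, adjusted p = 0.0653), Mup11 at 1.52 (0.20 to 2.84, adjusted p = 0.186), Mup16 at 1.15 (−0.06 to 2.37, adjusted p = 0.279) and Mup7 at 1.02 (−0.19 to 2.23, adjusted p = 0.341). The difference between these 2 sets of estimates was not tested. Within batch 1 the sets overlapped, with −1.07 (Mup7) to 0.20 (Mup17) for these 6 near-identical copies and −0.62 (Mup21) to −0.17 (Mup3) for the divergent ones.

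The near-identical copies were high in 1 or 2 of the 6 old HFD mice, both of batch 2. Mup17 had 15.9, 48.3 and 973 CPM (lowest, median, highest) in old HFD, with 348 CPM in replicate 4, 973 CPM in replicate 5 and at most 60.1 CPM in the other 4. Mup11 had 28.0, 144 and 924 CPM, with 877 CPM in the next mouse, and Mup7 had 169, 514 and 3680 CPM with 723 CPM in the next mouse. Summed over the near-identical copies, the log2 ratio of old HFD to old ND was 1.48, but −0.84 in batch 1 and 2.46 in batch 2. The median estimate over members was likewise −0.44 in batch 1 and 2.23 in batch 2, so the direction did not hold within batches. Without old HFD replicate 5 the median was 0.25. Without old ND replicate 4 it was 1.12, with 0.01 for Mup3, −0.08 for Mup20 and 0.04 for Mup21. In this comparison 0 of the general hepatocyte, Kupffer cell, leukocyte, endothelial and stellate cell markers were called. Of 10 markers of hepatocytes around the central vein, 2 were called higher and 0 lower (median log2 fold change 0.65), and their part in these values was not tested.

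Between the HFD groups, 0 of 9 members were called (edgeR), against 2.24% of all genes, 1.82% higher and 0.42% lower. At an unadjusted p under 0.05, 1 member differed (21% of all genes did). The median over the members was 0.18, with 5 estimates above 0 and 4 below. Leaving out 1 mouse moved that median to between −0.47 (without old HFD replicate 5) and 0.60 (without young HFD replicate 6), and it was −0.75 within batch 1. Mup20 came nearest, with 951, 1746 and 2522 CPM in young HFD and 2129, 2714 and 4985 CPM in old HFD, and a log2 fold change of 0.76 (95% interval 0.27 to 1.24, edgeR adjusted p = 0.094). DESeq2 with batch put it past the threshold (adjusted p = 0.0324), as did edgeR without old ND replicate 4 (adjusted p = 0.0411). Mup3 had a log2 fold change of −0.26 (95% interval −0.59 to 0.06), and limma on log2(FPKM + 1) called 0 members.

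Old HFD against young ND joined both differences, and 2 of the 9 tested members fell, where 30.2% of all genes were called, 12.9% lower and 17.3% higher. At an unadjusted p under 0.05 the count was also 2 (42.3% of all genes). Mup3 had 4206, 5733 and 6556 CPM in old HFD, all below young ND (as for 4.27% of all genes). Its log2 fold change was −0.67 (standard error 0.17, edgeR adjusted p = 0.00527), −0.69 in batch 1 and −0.66 in batch 2. Mup21 had 65.9, 122 and 230 CPM and a log2 fold change of −0.89 (standard error 0.27, edgeR adjusted p = 0.0171), but −1.54 in batch 1 and −0.29 in batch 2, and its adjusted p was 0.0502 without old HFD replicate 3. The 2 of 9 members called lower stood near the share of all genes. Without old HFD replicate 5 the count was 5, as Mup7, Mup16 and Mup17 then also passed. Within batch 1 it was 7 (6.79% of all genes called) and within batch 2 it was 0 (4.33%). Markers of other liver cells were called higher in this comparison too (leukocyte 10 of 11 tested, Kupffer cell 9 of 10, endothelial cell 9 of 10, stellate cell 8 of 10), and of 10 hepatocyte markers 4 were called lower and 1 higher. Their part in these values was not tested.

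**Figure D4:**
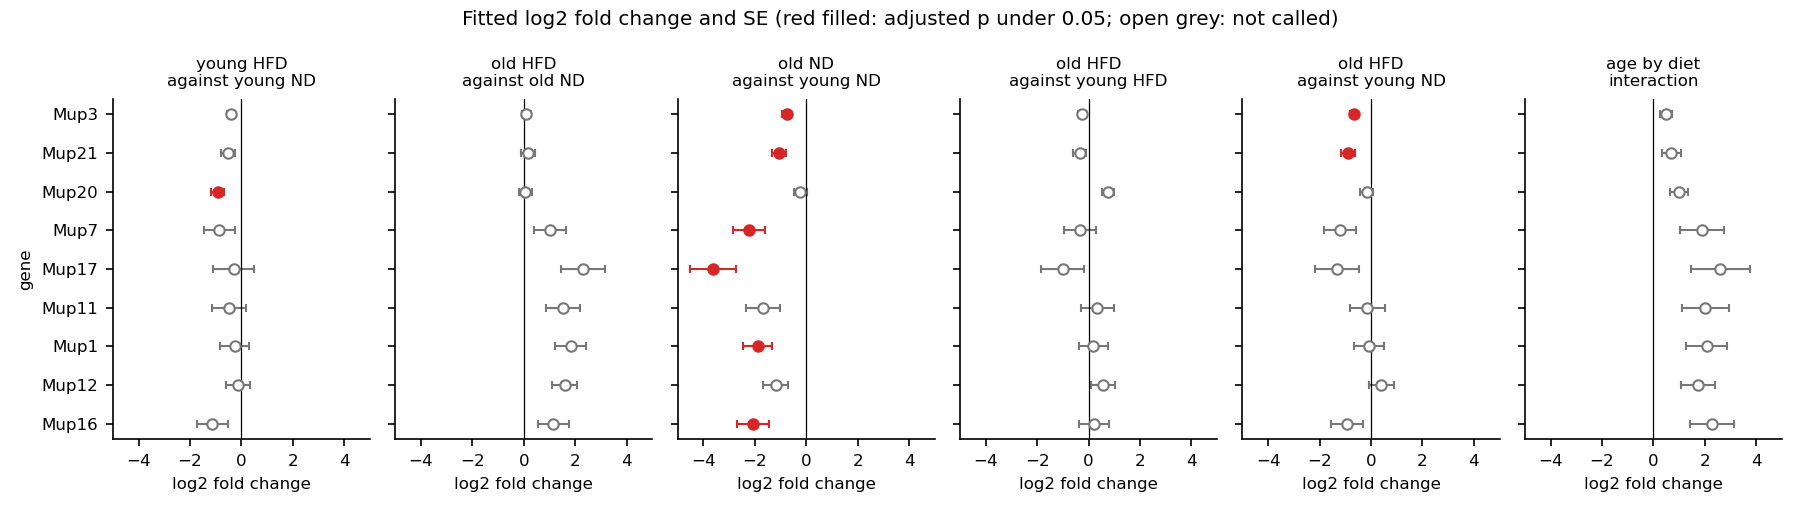
Fitted log2 fold change of the 9 tested members with its standard error in each of 5 comparisons, and the age by diet interaction; filled red points have an edgeR adjusted p under 0.05 and open grey points do not. Old ND against young ND holds 6 filled points from −0.76 (Mup3) to −3.62 (Mup17), and all 9 interaction estimates lie to the right of 0 with none filled.

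The age by diet interaction asks whether HFD moved a member differently in old and in young mice. It was positive for all 9 members, from 0.50 for Mup3 to 2.60 for Mup17 (median 1.88, against −0.0288 over all genes). None passed (edgeR adjusted p 0.531 to 0.566), as 0% of all 13583 genes did. At an unadjusted p under 0.05 it held for 8 of 9 members and for 9.18% of all genes, while DESeq2 and limma also called 0 members. Mup20 had an interaction of 0.99 (95% interval 0.30 to 1.67), with estimates of −0.93 in young and 0.06 in old mice. The median over members was 0.46 within batch 1. Leaving out 1 mouse moved it to between 1.19 (without old HFD replicate 5) and 2.30 (without young HFD replicate 6). Without old HFD replicate 5 the Mup17 estimate was 1.52. The comparisons share groups, so a low old ND level enters both the age difference and the interaction.

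How far mice of the same group differed depended on the copy. For Mup3 the highest mouse of a group had 1.44 to 1.99 times the lowest, for Mup20 1.78 to 3.12 times and for Mup21 1.69 to 3.49 times. For Mup17 the ratio was 4.60 in old ND, 8.93 in young ND, 48.8 in young HFD and 61.2 in old HFD. Mup11 had 2.49 in old ND and 4.37 in young ND, then 24.6 in young HFD and 33.0 in old HFD. Not all near-identical copies followed this order. Mup1 had 6.37 in old ND and 5.39 in young ND, Mup12 had 4.72 in both ND groups and was higher in young HFD (7.70) than in old HFD (6.06), and Mup16 had 16.8 in young HFD and 16.6 in old HFD.

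**Figure D5:**
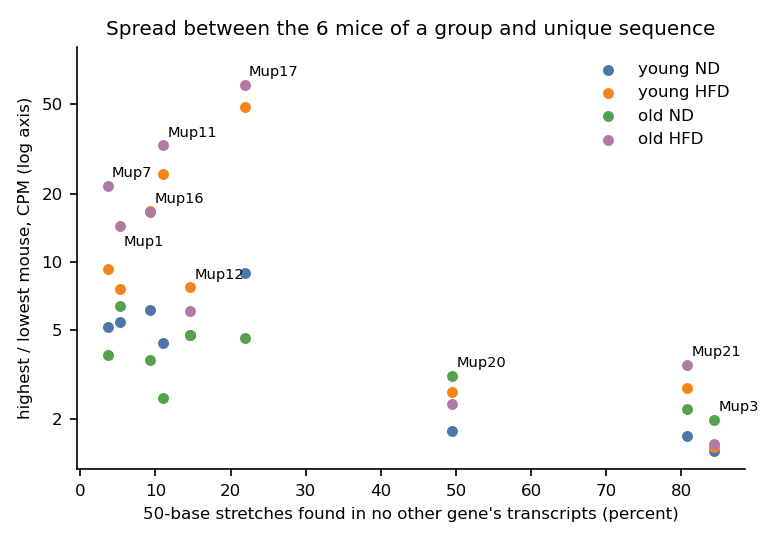
Ratio of the highest to the lowest of the 6 mice of a group (CPM, log axis) against the percent of a gene's 50-base stretches found in no other gene, for the 9 tested members; each point is a member in a group, coloured by group, and each name stands beside the highest point of its member. The 6 tested copies with 21.87% or less unique sequence range from 2.49 to 61.2, and Mup20, Mup21 and Mup3 stay at or below 3.49.

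The near-identical copies moved together from mouse to mouse. After group and batch means were removed, the correlation of log2 CPM over the 24 mice was 0.671 to 0.916 (median 0.834) over their 15 tested pairs. It was 0.5 to 0.622 over the 3 pairs among Mup3, Mup20 and Mup21, and 0.122 to 0.839 (median 0.489) over the 18 pairs between the sets. These are descriptions, as the pairs share mice, libraries and, among the near-identical copies, possibly reads. In young ND, replicate 5 was the lowest mouse for all 10 members, and in old HFD replicates 4 and 5 held the highest value of all 10 between them.

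The 12 other protein-coding Mup genes of the stretch had fewer counts, 875 ± 274 CPM in sum in young ND (SD, n = 6) and 707 ± 465 in young HFD, with 385 ± 79.1 in old ND against 627 ± 569 in old HFD. The highest 3 by mean over all mice were Mup14 (267 CPM), Mup22 (184 CPM) and Mup15 (114 CPM). Of the 10 tested, 4 were called lower in old ND against young ND (1.24% of all genes in that direction). In old HFD against old ND 1 was higher (1.37% of all genes), in old HFD against young ND 1 was lower (12.9% of all genes), and 0 were called in the other comparisons. Mup22 fell from 234 ± 51.1 to 125 ± 34.2 CPM between young ND and old ND (log2 fold change −0.86, standard error 0.18, edgeR adjusted p = 0.0058), and Mup15 from 195 ± 123 to 25.9 ± 20.2 CPM (−3.43, standard error 0.96, adjusted p = 0.0253). Mup22 shares 92.86% of its 50-base stretches with Mup10, and Mup15 shares 70.84% of those of Mup7, so their counts are uncertain in the same way. With all 22 genes summed, old ND had 57.9% of the young ND level, close to the 58.7% of the 10 members.

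Of the 3 nearest protein-coding genes to the left of the stretch (Slc46a2, Snx30, Inip) and to the right (Zfp37, Slc31a2, Fkbp15), 4 were tested. The 1 call over the 5 comparisons was Slc31a2, a copper transport protein, which rose in old HFD against young ND (log2 fold change 0.44, standard error 0.16, edgeR adjusted p = 0.0459). In that comparison 30.2% of all genes were called. Snx30, the nearest tested gene at 52067 bases, had a log2 fold change of 0.13 (edgeR adjusted p = 0.7) in old ND against young ND.

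Some other genes that are more active in male than in female mouse liver were also called lower, mostly in comparisons with young ND. Of 14 listed and tested, 7 were called lower in old ND against young ND and 0 higher (median −0.88), 6 lower in young HFD against young ND (median −1.12), 1 lower in old HFD against old ND (median −0.07), 0 between the HFD groups and 7 lower in old HFD against young ND. Cyp4a12a, an enzyme that oxidizes fatty acids, went from 286 ± 66.2 CPM in young ND to 108 ± 28.5 in young HFD, and was at 108 ± 32.5 in old ND against 124 ± 60.2 in old HFD. The fitted log2 change of Cyp4a12a was −1.41 in old ND against young ND (standard error 0.27, edgeR adjusted p = 0.00335) and −1.40 in young HFD against young ND (standard error 0.27, adjusted p = 0.00449). Gstp1, a glutathione transferase, fell by 1.94 on the log2 scale in young HFD against young ND (standard error 0.27, edgeR adjusted p = 0.000224). Ugt2b1, which conjugates steroids and drugs to glucuronic acid, fell by 0.76 in old ND against young ND (standard error 0.21, edgeR adjusted p = 0.0225).

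Of 24 listed genes that are more active in female liver, 14 were tested. Of these, 5 rose and 0 fell in old ND against young ND (median 1.64), and 6 rose and 1 fell in young HFD against young ND (median 1.79). In old HFD against old ND 1 rose and 1 fell, between the HFD groups 1 rose and 0 fell, and in old HFD against young ND 6 rose and 1 fell (median 1.54). Of all genes, 8.5%, 3.5%, 3.01%, 2.24% and 30.2% were called in either direction in these 5 comparisons, in the same order. Cyp2b9, a cytochrome P450, was at 0.303 ± 0.300 CPM in young ND (SD, n = 6) and 71.5 ± 55.6 in young HFD, against 8.37 ± 6.75 in old ND and 68.1 ± 47.0 in old HFD, and was called higher in all 3 groups than in young ND. Cyp2b13 had 0 counts in every young ND mouse and 0.658 ± 0.559 CPM in old ND. Atp6v0d2, a subunit of the vacuolar proton pump, rose by a log2 fold change of 2.32 in old ND against young ND (standard error 0.41, edgeR adjusted p = 0.00303).

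Of 12 tested genes of the growth hormone and STAT5 list, 2 rose and 0 fell in old ND against young ND (median −0.04), where 8.5% of all genes were called. The 2 were Socs3, which restrains cytokine signalling, and Igfbp3, which binds insulin-like growth factors. Socs3 had 9.62 ± 6.72 CPM in young ND and 35.3 ± 45.2 in old ND (log2 fold change 1.86, standard error 0.47, edgeR adjusted p = 0.0157), and Igfbp3 had 1.65 ± 1.95 and 9.77 ± 6.95 CPM (2.67, standard error 0.55, adjusted p = 0.00467). Stat5b, the factor that carries the male growth hormone signal, had 58.2 ± 7.37 CPM in young ND and 44.5 ± 6.48 in young HFD, against 49.4 ± 8.23 in old ND and 38.7 ± 8.41 in old HFD. Stat5b was called in old HFD against young ND alone (log2 fold change −0.58, standard error 0.15, edgeR adjusted p = 0.00556). In that comparison Stat5a also fell and Igf1 and Igfbp3 rose, so 4 of the 12 were called where 30.2% of all genes were. Igfbp1 was the 1 gene called in young HFD against young ND, lower (3.5% of all genes called). Socs3 was the 1 called in old HFD against old ND (3.01% of all genes called), where it fell by 1.79 on the log2 scale (standard error 0.48, edgeR adjusted p = 0.0396). Between the HFD groups 0 were called.

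Among 12 tested transcription factors linked to Mup transcription or to sex-biased liver genes, 0 were called in 4 of the 5 comparisons. In old HFD against young ND 3 rose and 4 fell, where 30.2% of all genes were called. Thrb, a thyroid hormone receptor, had 47.0 ± 4.95 CPM in young ND and 35.4 ± 6.60 in old ND (log2 fold change −0.36, standard error 0.13, edgeR adjusted p = 0.0711). In old HFD it was at 30.7 ± 6.74 CPM and passed (−0.63, standard error 0.13, edgeR adjusted p = 0.00117). Hnf4a, a master regulator of hepatocyte genes, fell by 0.73 in that comparison (standard error 0.18, edgeR adjusted p = 0.00534).

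Of 9 tested lipocalins outside the Mup family, 3 rose and 0 fell in old ND against young ND (median 0.21), 1 fell in young HFD against young ND, and 2 rose and 1 fell in old HFD against young ND. Of all genes, 8.5%, 3.5% and 30.2% were called in these 3 comparisons, so the last count stood near that share. Lcn2, an iron-scavenging protein of the acute phase, had 3.33 ± 4.17 CPM in young ND and 133 ± 301 in old ND (log2 fold change 5.01, standard error 1.07, edgeR adjusted p = 0.00558). Orm3, an orosomucoid gene, was at 0.564 ± 0.297 and 12.03 ± 23.4 CPM (4.36, standard error 0.94, adjusted p = 0.00595). In both, the old ND SD was larger than the mean. Obp2a, an odorant-binding lipocalin, went from 1.92 ± 1.45 CPM in young ND to 0.245 ± 0.418 in old HFD (−2.98, standard error 0.84, adjusted p = 0.0114). Of 24 abundant secreted hepatocyte proteins, 1 rose and 1 fell in old ND against young ND (median −0.08), where 8.5% of all genes were called. Serpina3k, a serpin of plasma, fell from 9728 ± 692 to 5957 ± 1248 CPM (log2 fold change −0.72, standard error 0.17, edgeR adjusted p = 0.00913), and Hpx, which binds heme, rose from 3032 ± 387 to 5871 ± 3223 CPM (0.97, standard error 0.26, adjusted p = 0.0188). In young HFD against young ND 1 rose and 1 fell (3.5% of all genes called). In old HFD against young ND 6 rose and 1 fell, near the share of all genes called (30.2%). Between the HFD groups 0 were called (2.24% of all genes). In old HFD against old ND 3 rose and 1 fell (3.01% of all genes called), among the 3 Apoc3, an apolipoprotein of plasma fat particles (0.88, standard error 0.22, adjusted p = 0.0324). No gene of any of these lists was called for the interaction.

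Over the 24 mice and 13558 other tested genes, those whose log2 CPM followed the log2 summed Mup level most closely were Cyp2d9 (Pearson r 0.862), Ugt2b1 (0.823), Ces3a (0.815), Serpina3k (0.793) and Ugt2b38 (0.791). With group and batch means removed the same values were 0.885, 0.824, 0.828, 0.65 and 0.684. Cyp2d9, a cytochrome P450 of male liver, had 1244 ± 214 CPM in young ND (SD, n = 6) and 866 ± 321 in young HFD, with 755 ± 228 in old ND against 784 ± 350 in old HFD. The genes most opposed were Gas6 (−0.834), Lims1 (−0.801) and St3gal2 (−0.794). Gas6, a secreted ligand of receptors on phagocytes, had 28.9 ± 12.4 CPM in young ND and 89.7 ± 75.7 in old ND. These values describe the 24 libraries, which share the groups, the batches and the marker differences given above.

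Promoters of 6 members (Mup3, Mup7, Mup10, Mup11, Mup17 and Mup21) are in the RefSeq table of GRCm38.p6. The STAT5 sequence TTCNNNGAA was found on either strand in 0 of these 6 in the 250 bases before the RefSeq start, against 7.02% of 32851 promoters in windows of that length. The sequence TATATAA, chosen after the windows were read, was present on the gene's strand in the last 60 bases before the RefSeq start in 4 of the 6 (Mup3, Mup10, Mup17 and Mup21), against 0.898% of all promoters. It began 8 to 30 bases before the RefSeq start of these 4 genes, but 14 bases after the GENCODE start of each, so the annotations differ on which side of the start it lies. These letters alone say nothing on whether a factor binds there.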

How the data were processed

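RNA-seq of hepatocytes from 24 mice (6 per group, each a separate mouse) was used. Per the study's methods and the submitters' processing notes, which also list FastQC 0.11.8, the authors aligned reads to mm10 (GENCODE) with STAR 2.7.3a and counted them per gene with HTSeq 0.11.2. The deposited counts are whole reads, not normalized. The authors also deposited FPKM values from CuffLinks, which the table's name gives as taken after ComBat, a batch adjustment (37789 rows), used here only in alternatives.

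Counts were tested with edgeR 4.0.16 (R 4.3.3, quasi-likelihood, TMM, group and batch, filterByExpr minimum count 10) over all 24 mice, with Benjamini-Hochberg adjustment over 13583 genes and a threshold of 0.05. Intervals are the estimate ± 1.96 standard errors, an approximation somewhat narrower than the F test gives. An interval that just leaves out 0 can thus go with an unadjusted p above 0.05. Sums over members have no test. Alternatives used DESeq2 1.42.0, limma 3.58.1 on log2(FPKM + 1) and log2(FPKM + 0.1), other normalizations, filters, samples and covariates, and each mouse left out. Between 9200332 and 22185069 counts per mouse set the precision, and values of few counts carry counting error on top of the spread between mice.

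The members and the gene lists were chosen with earlier results of these data known. Named are all 10 members, the 3 highest other Mup genes, at most 3 genes per list with the smallest adjusted p over 6 tests, the 3 nearest non-Mup protein-coding genes on each side, the 5 highest and 3 lowest correlations with the summed Mup level, and the genes with the most counts. One gene that this rule names is not reported here. Annotation and transcripts came from GENCODE M21, a close release to the authors' one, and promoters from RefSeq GRCm38.p6. Whether multi-mapping reads and strand were used in counting is not given in the sources used here.

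No pair of libraries within a group was alike within sampling noise (lowest chi-square per degree of freedom 14.4 over 60 pairs). In a test on simulated data for old ND against young ND (13404 genes), 60.6% of genes changed by 1 and 82.8% of genes changed by 2 on the log2 scale were called, and 7 of 13206 unchanged genes.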

Additional observations from a re-analysis of the deposited data

Results flagged for a closer look

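In 6 of the 44 sets of 6 mice examined (each member and the sum, by group), 1 mouse lay far from the other 5 by Dixon's criterion, which chance meets in about 1 of 20 sets. In young ND, replicate 5 was the lowest mouse for Mup7 (502 CPM, next 1802), Mup12 (11.3 CPM, next 33.1) and Mup16 (7.05 CPM, next 28.2). In old ND, replicate 4 was the lowest mouse for Mup20 (1253 CPM, next 2973), Mup21 (62.8 CPM, next 129) and the sum of the 10 members (5076 CPM, next 8563). Old ND replicate 4 also had the lowest hepatocyte marker sum (50790 CPM) and the highest Kupffer cell marker sum (1425 CPM) of its group, and their part in these values was not tested.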

How the results depend on the processing

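The percentages here give the share of all genes called in the same fit. Members called in young HFD against young ND were 1 by edgeR as reported (3.5%). They were 0 without batch (1.28%), with library totals alone (3.23%) and within batch 2 (0.0632%). By limma they were 0 with a pseudocount of 1 (0.579%) and of 0.1 (0.682%). They were 2 with only the mice of the 2 groups (18.6%) and 4 with no filter (4.56%). In old HFD against old ND the count of 0 (3.01%) became 2 by DESeq2 with batch (3.36%) or without it (2.76%). With no filter it became 6 (3.43%). In old ND against young ND the count of 6 (8.5%) became 2 by edgeR without batch (4.62%). It became 0 within batch 1 (0.687%), within batch 2 (0.014%) and by limma with a pseudocount of 1 (0.149%) and 0.1 (0.564%). Between the HFD groups 0 (2.24%) became 1 by DESeq2 with batch (2.63%) and 3 with no filter (3.82%). In old HFD against young ND 2 (30.2%) became 5 with no filter (14.3%), 7 within batch 1 (6.79%) and 0 within batch 2 (4.33%). For the interaction 0 (0%) became 7 with no filter (1.82%). In the edgeR fit with no filter, the highest quasi-likelihood dispersion of a member (its spread beyond the count model) was 1.16, against 17 as reported. The prior degrees of freedom, the weight given to a spread shared across genes, were infinite there, against 5.33 as reported. The no-filter counts thus rest on a shared spread and not on that of each member. The cause of the changed counts was not tested.

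The median over members was −0.87 within batch 1 and 0.0062 within batch 2 for young HFD against young ND. For old HFD against old ND it was −0.44 and 2.23, and 0.20 and 0.24 by limma with a pseudocount of 1 and 0.1. For old ND against young ND it was −1.25 by DESeq2 without batch and −1.28 within batch 1. Between the HFD groups it was −0.75 within batch 1 and −0.24 and −0.43 by limma. For old HFD against young ND it was −2.06 within batch 1 and 0.28 within batch 2, and for the interaction 0.46 within batch 1 and 1.14 and 1.22 by limma. The summed log2 ratio of old HFD to old ND was −0.22 within batch 1.

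The replicate numbers did not pair the mice (mean correlation of deviations −0.0467 once group and batch means were removed, −0.438 to 0.399 over 36 pairs). In a fit blocked on replicate number, without batch, the count in young HFD against young ND was 0 (Mup20 adjusted p = 0.0724), the other counts did not change, and Mup11 in old HFD against young ND turned to 0.14.

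Single estimates changed sign as follows. In young HFD against young ND, within batch 2, Mup1 was at 0.48, Mup11 at 0.44, Mup12 at 0.41, Mup16 at 0.0062 and Mup17 at 0.36, and Mup17 was at 0.017 by DESeq2 without batch. In old HFD against old ND, within batch 1, Mup1 was at −0.55, Mup3 at −0.17, Mup7 at −1.07, Mup11 at −0.59, Mup16 at −0.23, Mup20 at −0.32 and Mup21 at −0.62; by limma Mup20 was at −0.0041 and −0.0040 and Mup21 at −0.11 with both pseudocounts. In old ND against young ND, Mup20 was at 0.0048 within batch 1. Between the HFD groups, within batch 1, Mup1 was at −1.20, Mup11 at −0.92, Mup12 at −0.46 and Mup16 at −0.17; Mup7 was at 0.26 within batch 2; and Mup1 was at −0.19 with only these mice and −0.61 and −0.71 by limma. In old HFD against young ND, within batch 2, Mup1 was at 1.21, Mup7 at 0.0024, Mup11 at 1.29, Mup16 at 0.36 and Mup17 at 0.28; Mup11 was at 0.60 by DESeq2 and 0.54 by edgeR without batch; and Mup12 was at −1.02 within batch 1 and −0.28 and −0.32 by limma.

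Leaving out each mouse gave 0 to 1 members called in young HFD against young ND, 0 to 2 in old HFD against old ND (2 without old HFD replicate 3), 3 to 6 in old ND against young ND, 0 to 1 between the HFD groups (1 without old ND replicate 4) and 1 to 5 in old HFD against young ND (1 without old HFD replicate 3, 5 without old HFD replicate 5). Medians ranged from −0.80 to −0.29 in young HFD against young ND, 0.25 to 1.36 in old HFD against old ND, −1.75 to −1.16 in old ND against young ND, −0.47 to 0.60 between the HFD groups, −0.84 to −0.38 in old HFD against young ND and 1.19 to 2.30 for the interaction. Estimates that crossed 0 ranged from −1.37 to 0.13 (Mup17) and −0.58 to 0.070 (Mup12) in young HFD against young ND, and from −0.084 to 0.15 (Mup20) and −0.0058 to 1.39 (Mup7) in old HFD against old ND. Between the HFD groups they were −0.67 to 0.60 (Mup1), −1.41 to 0.11 (Mup7), −0.077 to 1.14 (Mup11) and −0.75 to 1.06 (Mup16), and in old HFD against young ND −0.84 to 0.23 (Mup1) and −0.50 to 0.20 (Mup11).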
